A study of Mus musculus with 6 samples.

Results

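The genes for 10 oxygen-dependent demethylases of histones and DNA were followed in CT26.WT, a colon carcinoma cell line of the mouse, after a treatment that combined a nanoparticle, a sulfide donor and light. The 10 genes, Kdm3a, Kdm4a, Kdm4b, Kdm4c, Kdm5a, Kdm5b, Kdm6b, Kdm2a, Tet2 and Tet3, were taken by symbol from the 25407 gene rows of the deposited table. All 10 were among the 16212 rows that passed the filter on low counts. Libraries came from 3 samples titled as experimental and 3 titled as control. The experimental samples were taken as the treated group, since the design of the study names just that group beside the control: cells that received Cu2O@AuMn@HA, whose name lists copper(I) oxide, gold and manganese, along with NaHS, which releases hydrogen sulfide, and NIR, near-infrared irradiation. Control cells were of the same line, and what they received in place of these agents was not given in the sources used here. Neither group carries a deletion or transgene in the labels. Because the agents were applied jointly, their parts in any difference cannot be told apart. Dose and timing were likewise not stated.

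The KDM enzymes described here carry a JmjC domain, and TET enzymes belong to the same wider class of dioxygenases. Both kinds hold iron in the active site and use molecular oxygen and 2-oxoglutarate to oxidise a methyl group, which is then lost from lysine in the KDM reaction. KDM3 and KDM4 enzymes act on H3K9 methylation (KDM4 on H3K36 as well), KDM5 on H3K4, KDM6B on H3K27 and KDM2A on H3K36. TET enzymes oxidise 5-methylcytosine in DNA. Because they need oxygen, several of these enzymes slow down when oxygen is scarce, and KDM3A and KDM4B are also known as targets of the hypoxia-inducible factor HIF-1 in human and mouse cells.

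Sequence upstream of the genes is shown first, because the hypoxia response element core, ACGTG or GCGTG, can be read directly in it. RefSeq promoter windows (GRCm38.p6, 250 bases before to 50 bases after an annotated start) were found for 6 of the 10 genes, 9 windows in all, and none was used for Kdm4b, Kdm5a, Kdm6b and Kdm2a. The 120 bases before a start are printed 5′ to 3′ on the strand of the gene, with the core in capitals on either strand. These GRCm38.p6 positions are not on the same scale as the deposited gene coordinates below, whose build is not named. The strand of the Kdm4c window could not be checked against the annotation. Printed are the stretches of every window with a core, and that of Kdm4a, which has none. The windows not printed, which are the other windows of Kdm3a, the upstream one of Kdm4c and that of Tet3, held no core. The first 4 genes rose in treated cells and Kdm4a fell. Since the stretches were picked by their core, a link between core and direction cannot be read from them and was not tested.
Kdm3a, chr6:71632918-71633037, minus strand: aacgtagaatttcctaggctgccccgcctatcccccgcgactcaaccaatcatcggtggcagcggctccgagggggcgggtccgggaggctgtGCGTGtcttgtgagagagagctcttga
Kdm4c, chr4:74251759-74251878, plus strand, the downstream of its 2 annotated starts: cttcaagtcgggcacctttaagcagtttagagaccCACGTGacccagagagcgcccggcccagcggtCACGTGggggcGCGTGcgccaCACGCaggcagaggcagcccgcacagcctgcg
Kdm5b, chr1:134560058-134560177, plus strand: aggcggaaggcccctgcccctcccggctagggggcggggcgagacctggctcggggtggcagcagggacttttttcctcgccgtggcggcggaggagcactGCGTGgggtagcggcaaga
Tet2, chr3:133544391-133544510, minus strand: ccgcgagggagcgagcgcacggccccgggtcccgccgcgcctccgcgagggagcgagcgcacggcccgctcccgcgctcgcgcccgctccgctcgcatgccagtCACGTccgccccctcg
Kdm4a, chr4:118180044-118180163, minus strand: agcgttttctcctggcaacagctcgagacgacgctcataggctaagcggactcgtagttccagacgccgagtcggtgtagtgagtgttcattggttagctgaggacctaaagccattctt

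A core was present in at least 1 window of Kdm3a, Kdm4c, Kdm5b and Tet2, and in no window of Kdm4a or Tet3. In Kdm3a it began 27 bases before the upstream start, and its other 2 windows held none. The 2 CACGTG palindromes of Kdm4c each hold ACGTG on both strands and are also E-box sequences, which other factors bind. Over all 9 windows the core was in 4 (44.4%), close to the 43.8% of all 32851 RefSeq windows of the same length. The same windows were searched for other elements (N, any base). The metal response element TGCGCNC was matched in windows of Tet2, Kdm4c and Kdm3a, and TGCACNC in that of Tet3. These letters stood in 15.4% and 12.6% of all RefSeq windows. The antioxidant response element TGACNNNGC was matched in windows of Kdm4c and Kdm4a (12.4% of all windows). The heat shock pair GAANNTTC was matched in windows of Kdm5b and Kdm3a (7.86%). All these matches describe letters in a window and say nothing of binding.

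In treated cells 6 of the 10 genes rose, 1 fell and 3 did not pass the test. Kdm3a, Kdm4b, Kdm4c, Kdm5a, Kdm5b and Tet2 rose by a log2 fold change of 0.72 to 1.26, Kdm4a fell by 0.86 on the log2 scale, and Kdm6b, Kdm2a and Tet3 lay between −0.09 and 0.26. The test was edgeR's quasi-likelihood test with Benjamini-Hochberg adjustment over all tested rows and a threshold of 0.05, and a positive log2 fold change means higher in treated cells. Of all tested rows 46.6% changed, 23.0% upward and 23.5% downward, so the 7 of 10 that changed stand beside a background in which close to as many rows changed as did not. The median log2 fold change was 0.80 over the 10 genes and 0.06 over all tested rows. Measured without reference to the model, FPKM values of the groups did not overlap for 7 genes that were higher in treated cells and for 1 that was lower, against 30.4% and 27.1% of all tested rows.

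**Figure D1:**
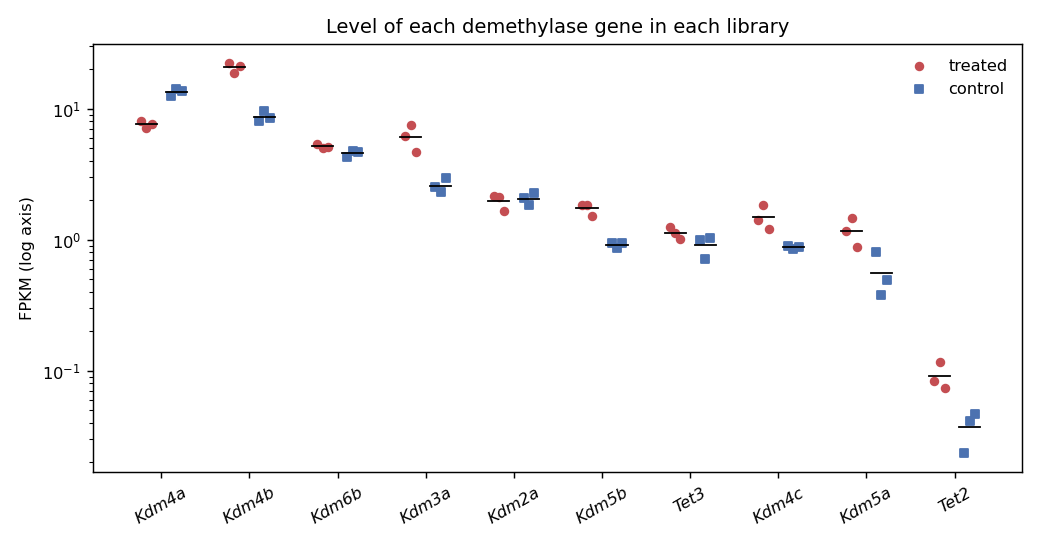
FPKM (fragments scaled by transcript length and library depth, log axis) of each demethylase gene in each library. Circles are the 3 treated libraries, squares the 3 control libraries and short lines the group means; Kdm4b lies above Kdm4a in treated cells and below it in control cells.

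Totals were 62328377 to 70323604 estimated counts in treated libraries and 71409968 to 81821380 in control libraries, and a sequenced fragment was taken as 4 of these counts. The epithelial genes Epcam and Cdh1 were nearly absent, at 0.00901 and 0.0425 FPKM in treated cells and listed at 0 in control cells. Cldn7 was likewise at 0 in control cells, so the defining epithelial markers were absent or nearly so, while the summed FPKM of the epithelial list was 224.2 to 237.6 in treated and 152.9 to 169.2 in control libraries, mostly Krt18 and Krt20. The mesenchymal list summed to 1633 to 1745 FPKM in treated and 1210 to 1299 in control libraries, mostly Vim. Of 5 tested immune genes only Cd68 rose, and the summed FPKM of the immune list was 58.5 to 66.8 in treated and 30.9 to 31.2 in control libraries, while Ptprc, which defines leukocytes, averaged 0.000970 FPKM in treated cells and was listed at 0 in control cells. Of 3 tested endothelial genes 0 passed, at a summed FPKM of 0.1 to 0.1345 in treated and 0.0569 to 0.0754 in control libraries. Libraries of 1 group also differed in how they read GC-rich and GC-poor genes: across 10194 rows the deviation from the group mean correlated with GC content at a Spearman rho of 0.12, −0.69 and 0.63 in treated 1, 2 and 3, and −0.43, 0.49 and −0.11 in control 1, 2 and 3. The part of these markers in the results was not tested. As in any bulk measurement, fewer cells expressing a gene and less RNA of it per cell cannot be told apart.

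Among the erasers of H3K9 methylation, the balance between the paralogs Kdm4b and Kdm4a was turned round. Kdm4b (ENSMUSG00000024201, chromosome 17, 56633062 to 56709870, plus strand) was at 22.2, 18.7 and 21.4 FPKM in treated libraries 1 to 3, and at 8.03, 9.57 and 8.43 FPKM in control libraries 1 to 3. Every treated library was above every control library, and Kdm4b was the most abundant of the 10 genes in treated cells. Its log2 fold change was 1.22 ± 0.11 (SE; edgeR adjusted p = 1.6e-05).

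Kdm4a (ENSMUSG00000033326, chromosome 4, 117994154 to 118037240, minus strand) was at 8.11, 7.13 and 7.59 FPKM in treated libraries and at 12.6, 14.1 and 13.6 FPKM in control libraries. Here all treated libraries were below all control libraries, and Kdm4a was the most abundant of the 10 genes in control cells. It was the only one of the 10 to fall, by 0.86 ± 0.09 on the log2 scale (edgeR adjusted p = 4.5e-05). Kdm4a and Kdm4b kept their direction and their calls in all 21 alternative fits.

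The third paralog, Kdm4c (ENSMUSG00000028397, chromosome 4, 74160734 to 74324097, plus strand), was far less abundant. It stood at 1.42, 1.83 and 1.20 FPKM in treated libraries and at 0.894, 0.855 and 0.876 FPKM in control libraries. The control libraries lay close together, the treated ones spread more widely with library 2 highest, and the groups did not overlap. The log2 fold change was 0.72 ± 0.17 (edgeR adjusted p = 0.00725), or 0.48 with a correction for GC content (adjusted p = 0.0170) and 0.40 on the log2(FPKM + 1) scale.

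Expressed as shares of the summed Kdm4a, Kdm4b and Kdm4c FPKM, which do not depend on how a library is scaled, Kdm4b took 69.5% ± 1.69 in treated and 37.7% ± 1.13 in control cells (SD, n = 3 each). Kdm4a took 25.5% ± 0.310 in treated and 58.5% ± 0.905 in control cells. Kdm4b exceeded Kdm4a 2.74-, 2.62- and 2.81-fold in treated libraries 1 to 3, while in control libraries 1 to 3 the same ratio was 0.637, 0.677 and 0.621. The ratio shows that the transcripts of both paralogs changed unequally. The shares of both did not overlap between groups, and each gave a 2-sided exact permutation p of 0.1, the smallest that 3 against 3 libraries allow (0.175 adjusted over the 7 shares tested). Kdm4c took 5.02% ± 1.40 in treated and 3.82% ± 0.334 in control cells (exact permutation p = 0.2). The summed FPKM of the 3 paralogs was 29.8 ± 2.05 in treated and 23.0 ± 1.52 in control cells, with no overlap between 27.6 to 31.7 in treated and 21.5 to 24.6 in control libraries.

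**Figure D2:**
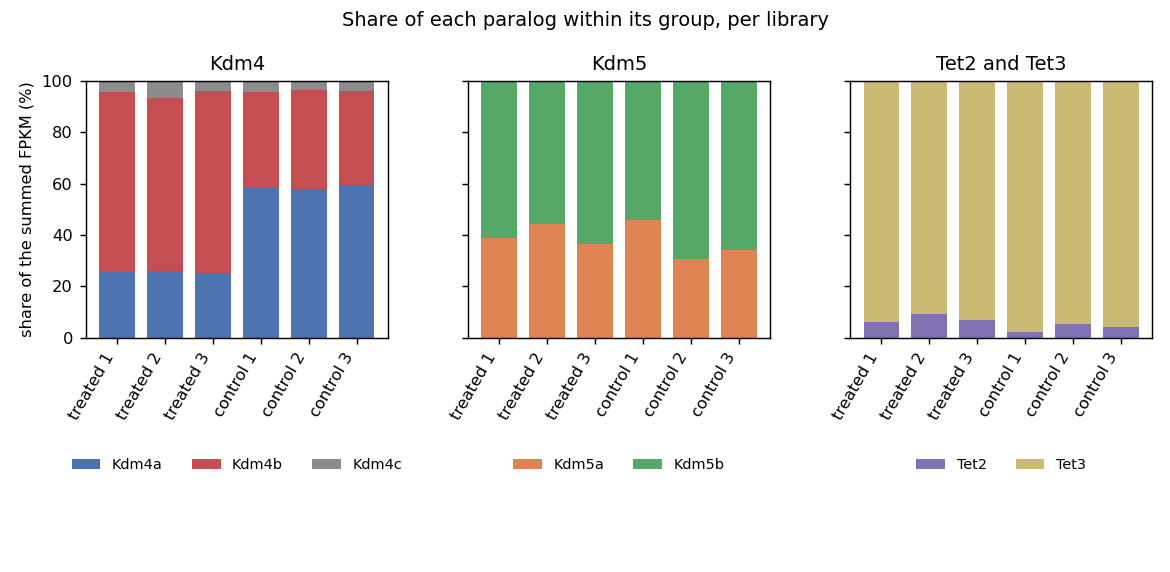
Share in percent of each paralog in the summed FPKM of Kdm4a to Kdm4c (left), Kdm5a and Kdm5b (middle) and Tet2 and Tet3 (right). Each bar is 1 library, treated 1 to 3 and then control 1 to 3; Kdm4b takes 67.6 to 70.8% of its panel in treated and 36.8 to 39.0% in control libraries, while the Kdm5 shares overlap between groups.

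Kdm3a (ENSMUSG00000053470, chromosome 6, 71565956 to 71609889, minus strand), which removes mono- and dimethyl marks from H3K9 and whose upstream start carries the GCGTG core shown above, also rose. It was at 6.21, 7.46 and 4.64 FPKM in treated libraries and at 2.51, 2.30 and 2.94 FPKM in control libraries. The treated libraries spread widely, with library 2 highest and library 3 lowest, but the lowest of them was above the highest control library. The log2 fold change was 1.20 ± 0.15 (edgeR adjusted p = 1.7e-04), and it stayed between 0.97 and 1.34 and past the threshold in all 20 alternatives that tested the gene. In the order of levels Kdm3a overlapped Kdm4a above it and Kdm6b below it in treated cells, whereas in control cells it overlapped neither of its neighbours.

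Both erasers of H3K4 methylation among the 10 were higher in treated cells. Kdm5b (ENSMUSG00000042207, chromosome 1, 134487909 to 134563023, plus strand) was at 1.83, 1.86 and 1.51 FPKM in treated and at 0.943, 0.867 and 0.942 FPKM in control libraries. All treated libraries were above all control libraries. Its log2 fold change was 0.88 ± 0.10 (edgeR adjusted p = 9.9e-05), 0.91 with the GC correction and 0.51 on the log2(FPKM + 1) scale.

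Kdm5a (ENSMUSG00000030180, chromosome 6, 120341085 to 120421535, plus strand), whose enzyme is known to lose activity at low oxygen in cultured human cells, was at 1.16, 1.47 and 0.876 FPKM in treated and at 0.799, 0.381 and 0.489 FPKM in control libraries. Treated library 3 and control library 1 were close, so the groups were apart only narrowly. The log2 fold change was 1.04 ± 0.26 (edgeR adjusted p = 0.00824). It was 0.77 with the GC correction, 1.35 without control 1 (adjusted p = 0.00142) and 0.65 without both libraries numbered 2, where the call was lost (adjusted p = 0.0596). Ccdc77, on the other strand, overlaps Kdm5a in the deposited coordinates with a mean of 309 estimated counts against 922 for Kdm5a, and whether counting used the strand is not given. The genes that overlap Kdm4a, Kdm6b and Tet3 on the other strand had means of at most 27.5 estimated counts. Ccdc77 itself differed by 0.29 ± 0.22 on the log2 scale (edgeR adjusted p = 0.316).

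Summed over Kdm5a and Kdm5b, FPKM was 2.90 ± 0.474 in treated and 1.47 ± 0.250 in control cells (SD, n = 3 each). This sum leaves out Kdm5c, a more abundant KDM5 gene outside the 10. Kdm5c was at 8.13 ± 0.472 FPKM in treated and 9.39 ± 0.540 in control cells, so the sum does not describe the KDM5 group as a whole. Kdm5a took 39.9% ± 3.86 of that sum in treated and 36.8% ± 8.02 in control cells, a difference of 3.04 percentage points that was smaller than the spread between control libraries (exact permutation p = 0.6) and changed sign without control 2. No change of balance like that of Kdm4a and Kdm4b was therefore detectable between Kdm5a and Kdm5b.

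The H3K27 eraser Kdm6b and the H3K36 eraser Kdm2a did not pass. Kdm6b (ENSMUSG00000018476, chromosome 11, 69289334 to 69304501, minus strand), a gene known to be induced in inflammation, was at 5.42, 5.01 and 5.12 FPKM in treated and at 4.30, 4.80 and 4.64 FPKM in control libraries. The groups did not overlap, yet the gap between treated 2 and control 2 was small, and the log2 fold change was 0.14 ± 0.09 (edgeR adjusted p = 0.233). It passed at 0.31 with the GC correction (adjusted p = 0.00630) and at 0.27 with upper-quartile scaling (0.0286), a scaling that raised the median of all genes by 0.12. Kdm2a (ENSMUSG00000054611, chromosome 19, 4364447 to 4448313, minus strand), which binds CpG islands, was at 2.16, 2.13 and 1.67 FPKM in treated and at 2.06, 1.83 and 2.27 FPKM in control libraries. The groups overlapped, and the log2 fold change was −0.09 ± 0.11 (edgeR adjusted p = 0.567), with its sign turned under upper-quartile scaling (0.04) and without treated 3 (0.01).

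Of the DNA demethylases, Tet3 was the more abundant and Tet2 the one that passed. Tet2 (ENSMUSG00000040943, chromosome 3, 133169440 to 133250900, minus strand) was at 0.0829, 0.116 and 0.0731 FPKM in treated and at 0.0235, 0.0409 and 0.0463 FPKM in control libraries. The groups did not overlap, but these levels rest on 94 to 152 estimated counts in treated and 33 to 60 in control libraries, or about 8 to 38 fragments in a library. Its log2 fold change of 1.26 ± 0.34 (edgeR adjusted p = 0.0120) had the largest error of the 10. The call was lost without treated 2 (1.04, adjusted p = 0.0624) and without both libraries numbered 2 (1.16, adjusted p = 0.0712).

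Tet3 (ENSMUSG00000034832, chromosome 6, 83339355 to 83436066, minus strand) was at 1.25, 1.12 and 1.01 FPKM in treated and at 0.995, 0.717 and 1.03 FPKM in control libraries. The groups overlapped at treated 3 and control 3, and the log2 fold change was 0.26 ± 0.14 (edgeR adjusted p = 0.161). With the GC correction it was 0.48 and passed (adjusted p = 0.0346), and with the replicate block added to the correction it was 0.49 and did not (adjusted p = 0.0515). Tet2 took 7.46% ± 1.71 of the summed Tet2 and Tet3 FPKM in treated and 3.99% ± 1.57 in control cells (exact permutation p = 0.1), so Tet3 made up most of the signal in every library. Tet1, the other gene of the family, was at 0.00635 ± 0.00287 FPKM in treated and 0.0105 ± 0.00789 in control cells and was too low to be tested.

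**Figure D3:**
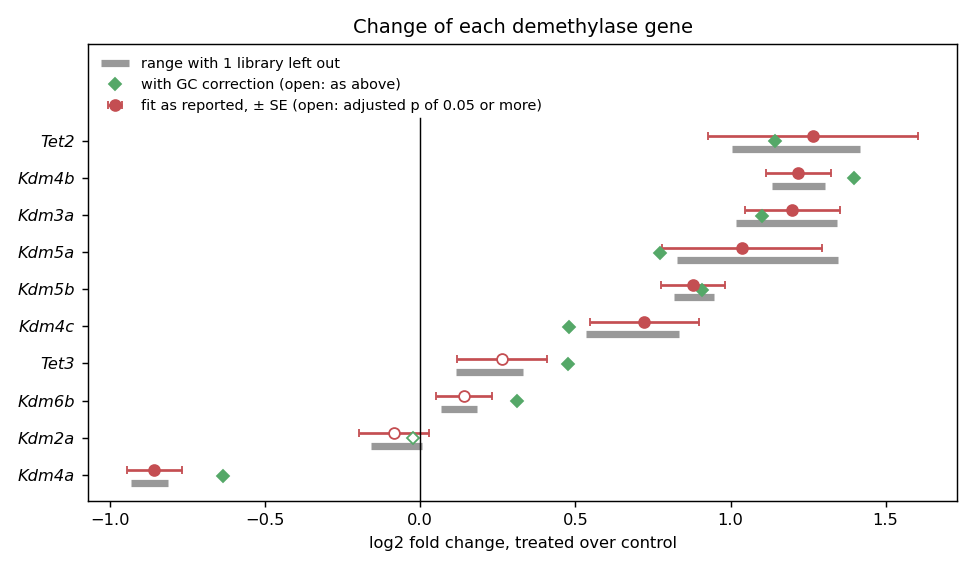
Log2 fold change, treated over control, of each demethylase gene. Circles give the edgeR value ± SE, grey bars the range over 6 fits with 1 library left out each, and diamonds the value with a GC correction; open symbols did not pass. Kdm4b moves further up and Kdm4a stays below 0 after the correction, while Tet3 and Kdm6b pass with it and not in the fit without it. Tet3 does not pass where a replicate block is added to the correction.

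Which treated library was highest differed with the base composition of the gene. Library 2 was the highest and library 3 the lowest treated library for 5 genes, Kdm3a, Kdm4c, Kdm5a, Kdm5b and Tet2, whose longest transcripts have 43.3 to 47.6% GC. For Kdm4a, Kdm4b and Kdm6b, at 53.6 to 59.6% GC, library 2 was instead the lowest treated library. Kdm2a at 48.26% GC and Tet3 at 53.45% GC had library 1 highest and library 3 lowest, so Tet3 differed from Kdm4a at a similar GC content. Treated libraries 2 and 3 stood at opposite ends of the GC correlation over all rows given above. Across all tested rows the fold change fell with GC content (Spearman rho −0.27 over 15760 rows, which are not independent replicates). Kdm4b rose at 58.7% GC, against this trend, and the correction moved it to 1.40. After correction 8 of the 10 genes were called higher and 1 lower, beside 25.6% and 23.5% of 15760 rows, or 49.1% in both directions. The median log2 fold change of the 10 was nevertheless smaller, at 0.63 with the correction and 0.80 without it. The genes also have long transcripts, 4196 to 10944 bases with a median of 7616, against a median of 2882 over tested rows. The part of transcript length in the results was not tested.

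In the order of levels in treated cells Kdm4b led at 20.7 ± 1.83 FPKM, Kdm4a, Kdm3a and Kdm6b followed with overlapping values of 7.61 ± 0.487 to 5.18 ± 0.211, and Kdm2a, Kdm5b, Kdm4c, Kdm5a and Tet3 overlapped their neighbours between 1.99 ± 0.277 and 1.13 ± 0.121. In control cells Kdm4a, Kdm4b, Kdm6b, Kdm3a and Kdm2a led with no overlap between neighbours, from 13.4 ± 0.772 down to 2.05 ± 0.219 FPKM, and Kdm5b, Tet3 and Kdm4c followed with overlapping values. Tet2 was lowest in both groups. The summed FPKM of the 10 genes was 45.05 to 49.8 in treated and 33.2 to 35.5 in control libraries. Within that sum Kdm4b stood at 20.7 ± 1.83 in treated and 8.675 ± 0.799 in control cells. The summed FPKM of the 11 other genes listed as JmjC demethylases, described next, went the other way. It was 33.0 to 36.4 in treated and 43.1 to 47.1 in control libraries. In that sum Riox1 stood at 4.42 ± 0.283 in treated and 8.03 ± 0.574 in control cells. Riox2 stood at 2.00 ± 0.242 in treated and 3.725 ± 0.402 in control cells. Whether each listed gene acts as a histone demethylase was not tested.

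The remaining JmjC demethylase genes, listed beside the 10, ran mostly downward. Of 11 in the table, 1 rose and 6 fell, with a median log2 fold change of −0.27. Riox2 (−0.93 ± 0.13), Riox1 (−0.90 ± 0.13) and the H3K36 eraser Kdm2b (−0.73 ± 0.12) had the smallest p of those that fell by edgeR's test (adjusted p = 2.7e-04, 3.4e-04 and 8.0e-04), while Phf2, the most abundant that did not pass, was at 9.30 ± 0.612 FPKM in treated and 10.9 ± 1.34 in control cells and passed as lower in 2 of 21 alternatives. Kdm5c, a further H3K4 eraser of the KDM5 group, fell by 0.25 ± 0.09 to 8.13 ± 0.472 FPKM in treated cells, against 9.39 ± 0.540 in control cells (edgeR adjusted p = 0.0374). Its call held in 5 of 21 alternatives, was lost on leaving out any library other than control 1 (adjusted p = 0.0501 to 0.101), and its value was −0.03 with the GC correction (adjusted p = 0.737). The 10 genes were chosen with results of these data known, so this contrast is a description and no test. The rise of Kdm7a, at 0.322 ± 0.130 FPKM in treated and 0.135 ± 0.0596 in control cells (edgeR adjusted p = 0.0273), passed in 9 of 18 alternatives that tested it and was at 0.59 with the GC correction (adjusted p = 0.154). Leaving out treated 1, treated 2, control 2 or control 3 ended its call (adjusted p = 0.0872, 0.123, 0.0727 and 0.0610).

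Genes for the opposing methyltransferases were set beside the erasers, list by list. For these and the other lists in this report, the background is 23.0% of all tested rows raised and 23.5% lowered. Of 10 genes of the H3K4 methyltransferase complexes, opposed by Kdm5a and Kdm5b, 0 rose and 9 fell (median −0.42), with the smallest p for the shared subunit Wdr5 (−0.72 ± 0.09), the enzyme Setd1a (−0.63 ± 0.09) and the subunit Ash2l (−0.42 ± 0.07), while Kmt2c, at 0.186 ± 0.0425 FPKM in treated and 0.196 ± 0.0501 in control cells, did not pass. Of 7 H3K9 methyltransferase genes, opposed by Kdm3a and the Kdm4 genes, 0 rose and 4 fell (median −0.40). Suv39h1 fell to 7.25 ± 0.323 FPKM in treated cells, against 17.8 ± 0.183 in control cells (log2 fold change −1.33 ± 0.08; edgeR adjusted p = 2.4e-06). Setdb1 fell by 0.65 ± 0.11 and Ehmt2 by 0.48 ± 0.09, and Ehmt1 was at 3.60 ± 0.249 FPKM in treated and 3.30 ± 0.137 in control cells, passing in 1 of 20 alternatives, the GC correction (0.27, adjusted p = 0.0168). Of 7 genes listed here as H3K36 methyltransferases 0 rose and 2 fell, Nsd2 (−0.45 ± 0.07) and Smyd2 (−0.33 ± 0.08, lost with the GC correction at adjusted p = 0.203). Setd3, on the same list, was at 18.9 ± 0.966 FPKM in treated and 18.3 ± 0.713 in control cells. Whether each of these genes acts on H3K36 was not tested. Of 6 genes of the H3K27 complexes 3 rose, Ezh1 (0.51 ± 0.08), Eed (0.64 ± 0.15) and Suz12, and 2 fell, Rbbp4 and Rbbp7 (−0.51 ± 0.09). Suz12 did not pass in 5 of 20 alternatives, among them the GC correction (adjusted p = 0.0508) and leaving out treated 2 (0.0628) or control 2 (0.0507). Rbbp4 did not pass in 5 of 21, among them leaving out treated 1 (adjusted p = 0.0749) or control 3 (0.0519). The enzyme Ezh2, opposed by Kdm6b, was at 2.74 ± 0.532 FPKM in treated and 2.90 ± 0.377 in control cells and did not pass, while with the GC correction it was at −0.29 and passed (adjusted p = 0.0269). Of 5 DNA methyltransferase and UHRF genes 1 rose and 2 fell. Dnmt1, the maintenance DNA methyltransferase, fell to 12.05 ± 0.760 FPKM in treated cells, against 34.1 ± 1.77 in control cells (−1.54 ± 0.08; edgeR adjusted p = 1.5e-06), and its partner Uhrf1 fell by 1.42 ± 0.09. Dnmt3a rose by 0.65 ± 0.16, a call lost without both libraries numbered 2 (adjusted p = 0.0607), and Uhrf2 was at 2.07 ± 0.291 FPKM in treated and 1.598 ± 0.331 in control cells, passing in 2 of 20 alternatives.

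Of 9 measured hypoxia targets, 9 rose, with a median log2 fold change of 1.37 and a range of 0.94 to 3.12. The smallest p was that of Bnip3 (3.12 ± 0.11), Egln1 (1.37 ± 0.08) and Car9 (1.67 ± 0.10). Of the 10 demethylase genes, Kdm3a, Kdm4b, Kdm5a and Tet2 had values inside that range, and Kdm4c and Kdm5b, which also rose, were below it. Raised genes of other lists lay inside it too, among them Gadd45a (1.14 ± 0.11) and Krt18 (1.28 ± 0.10). The part of hypoxia in these changes was not tested. Hif1an, a JmjC enzyme that hydroxylates HIF proteins, fell by 0.65 ± 0.08 (edgeR adjusted p = 1.8e-04).

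**Figure D4:**
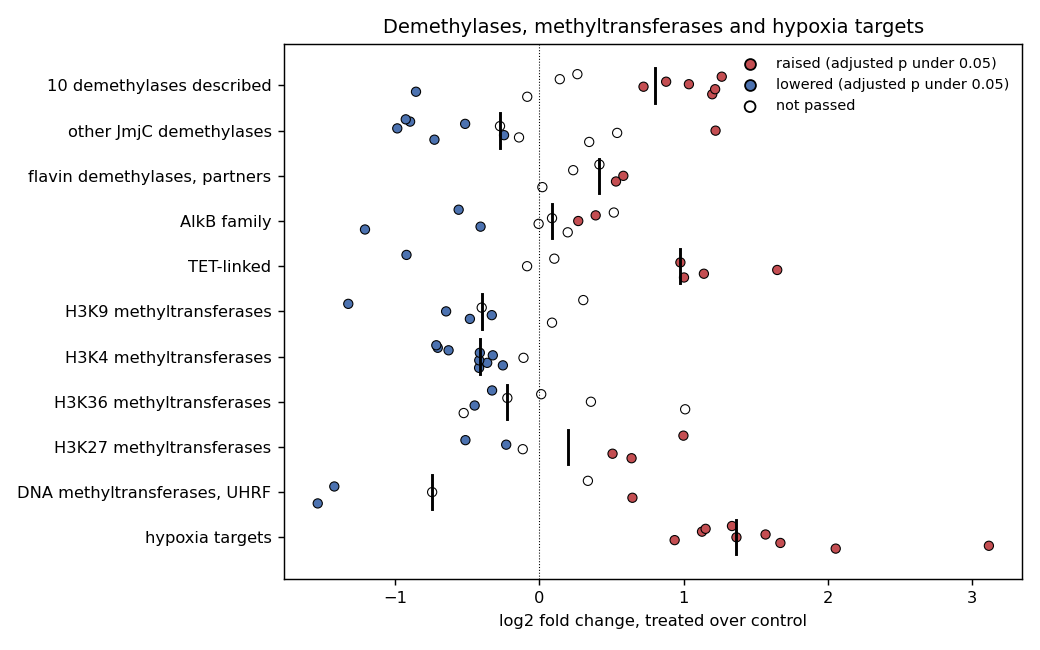
Log2 fold change, treated over control, of the 10 demethylase genes (top row) and of the other gene lists. Each point is a gene, red where it rose, blue where it fell and open where it did not pass; vertical bars are medians, which lie at 0.80 for the 10 genes and −0.42 for the H3K4 methyltransferases.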

How the data were processed

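RNA was measured in 3 treated and 3 control libraries of CT26.WT cells, grouped and numbered by their titles. Per the labels' protocols, mRNA was taken with oligo-dT beads and the second strand was marked with dUTP. Tools listed per the submitters' processing notes are HISAT2 2.2.1, cutadapt 1.9, edgeR, StringTie 2.1.6 and DESeq2, with no step assigned. The genome build, the annotation and whether counting used the strand were not given in the sources used here. Gene positions are printed as deposited, and those of none of the 10 genes equal GENCODE M21 on GRCm38 (0 of 10). Each gene has, per the file headers, FPKM and estimated counts for every library, as the authors deposited them. The estimated counts were deposited as whole numbers. The value 4 was seen 4054 times, and the values 3 and 5 on average 2539.5 times, so 4 estimated counts were taken as 1 fragment. The number of columns of per-sample values left unused was 0.

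Groups were compared by the quasi-likelihood test of edgeR 4.0.16 in R 4.3.3, 2-sided, with the default filter and TMM scaling, on 16212 of 25407 rows with Benjamini-Hochberg adjustment and a threshold of 0.05. Standard errors (SE) are the log2 fold change over the square root of F. The step was tested on simulated data. Shares were tested by exact permutation over libraries. Alternatives, 21 in all, were DESeq2 1.42.0, limma 3.58.1 on log2(FPKM + 1) or log2(FPKM + 0.1), other scalings and filters, a loess GC correction (span 0.4; GENCODE M21 transcripts, 97.2% of tested rows), a replicate block and left-out libraries. The 10 genes and the lists were chosen with earlier results of these data known. The rule for other named genes took up to 3 genes per list with the smallest p past the threshold and the most abundant one that did not pass; Kdm5c, Kdm7a, Tet1, Ccdc77, Suz12, Rbbp4, Epcam, Cdh1, Cldn7, Vim and Ptprc were named after their values were seen, and 1 gene that the rule took is not reported here. The labels do not say whether replicate libraries are separate cultures; p-values therefore cover only the variation among these 6 samples, which could be technical. Their number, 3 in each group, and the counts behind each gene limit the precision.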

Additional observations from a re-analysis of the deposited data

How the results depend on the processing

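Kdm3a, Kdm4a, Kdm4b, Kdm4c and Kdm5b kept direction and call in every alternative that tested them. Of the 10 genes 4 to 8 rose and 1 fell in all alternatives except limma at a mean FPKM of at least 5, where only Kdm4a and Kdm4b were tested and 1 rose; there 4363 rows changed, 1835 up and 2528 down. With 1 library left out, 5 to 6 of the 10 rose and 1 fell, 6073 to 7264 rows changed, 2832 to 3572 up and 3241 to 3720 down. Upper-quartile scaling called 4688 rows up and 3028 down, against 3735 and 3813. The median log2 fold change of the 10 genes was highest with that scaling, at 0.924. It was 0.605 without both libraries numbered 2. With limma on log2(FPKM + 1) at a mean FPKM of at least 1, which tested 8 of the 10, it was 0.275. The Kdm5a share difference was −0.126 to 7.55 percentage points with 1 library left out, and that of Kdm5b −7.55 to 0.126.

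No pairing by library number was seen (correlations of deviations of 0.0399, −0.103 and 0.00645 for numbers 1 to 3). A library did not always correlate best with its own number. These deviations also followed GC content, as given above, so the correlations cannot exclude a pairing. With the replicate block 6275 rows changed, 6 of the 10 genes rose and 1 fell.

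Among single genes, signs turned only for genes that did not pass. Kdm2a reached 0.038 with upper-quartile scaling and ran from −0.159 to 0.006 with 1 library left out (0.006 without treated 3). Jmjd7 (−0.11) reached 0.018 with that scaling, 0.090 with the GC correction and 0.092 with the block as well. Kmt2c (−0.11) reached 0.011 with that scaling and ran from −0.282 to 0.083 with 1 library left out, and Ezh2 (−0.12) 0.007 with that scaling, against −0.292 and a call with the GC correction. Setd3 (0.01) was at −0.039 with the GC correction, −0.038 with the block as well, −0.020 without both libraries numbered 2, and −0.034 to 0.026 with 1 library left out. Sdhd (−0.01) reached 0.067 with library totals only, 0.114 with upper-quartile scaling, 0.008 over every row above 0, 0.025 at 100 estimated counts or more, 0.002 with counts divided by 4, 0.026 in each of 3 limma fits, 0.104 with the GC correction and 0.105 with the block as well, 0.013 for protein-coding nuclear genes, 0.064 without both libraries numbered 2, and −0.082 to 0.013 with 1 library left out. The causes were not tested.

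Numbers rising and falling, outside the limma fits, ran from 0 to 2 and 4 to 7 for the other JmjC demethylases (1 and 6 in the report), 0 to 4 and 0 for flavin demethylases and partners (2 and 0), 0 to 1 and 3 to 5 for H3K9, 0 and 6 to 9 for H3K4, 0 to 1 and 2 to 3 for H3K36, 2 to 3 and 1 to 3 for H3K27 and 0 to 2 and 2 for DNA methyltransferase genes, and 0 to 3 and 2 to 3 for the AlkB family (2 and 3), while 1 to 5 oxoglutarate enzymes fell (4). Depth limits Tet2 most, at about 8 fragments in its shallowest library.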

Other observations

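Other oxygen-dependent demethylases lie outside the JmjC and TET families. Of 9 genes of the AlkB family, some members of which remove methyl groups from RNA or DNA, 2 rose and 3 fell in treated cells. Whether each of the 9 encodes a demethylase was not tested. Fto, an RNA demethylase, was at 4.79 ± 0.0760 FPKM in treated and 6.88 ± 0.407 in control cells (SD, n = 3 each; log2 fold change −0.56 ± 0.08, edgeR adjusted p = 3.4e-04). Alkbh3 fell by 0.41 ± 0.08, a call lost with the replicate block and GC correction together (adjusted p = 0.0526), and Alkbh2 by 1.21 ± 0.30, a call that it lost without both libraries numbered 2 (adjusted p = 0.0602), and Alkbh6 was at 8.37 ± 0.558 FPKM in treated and 7.69 ± 0.328 in control cells, passing in 1 of 21 alternatives, the GC correction. Of 5 flavin-dependent demethylase and partner genes 2 rose, Kdm1b (0.53 ± 0.16) and Rcor1 (0.58 ± 0.18), and the calls were lost in 7 and 6 of 20 alternatives, at adjusted p = 0.137 for Kdm1b and 0.154 for Rcor1 without both libraries numbered 2. Rcor2 was at 19.8 ± 2.27 FPKM in treated and 16.4 ± 0.678 in control cells and did not pass (0.23 ± 0.10, adjusted p = 0.0944), but it passed as higher in 10 of 21 alternatives, at 0.36 with the GC correction (adjusted p = 6.8e-04). Among 9 other JmjC proteins 4 rose and 4 fell, with Tyw5, a tRNA hydroxylase, at 2.09 ± 0.938 FPKM in treated and 0.505 ± 0.0414 in control cells (edgeR adjusted p = 3.8e-04). Jmjd8 fell by 0.71 ± 0.10, and Jmjd7 was at 5.93 ± 0.491 FPKM in treated and 6.24 ± 0.357 in control cells without passing.

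Of 7 tested genes linked to TET function 4 rose and 1 fell. The stress genes Gadd45b and Gadd45a rose by 1.65 ± 0.08 and 1.14 ± 0.11, and Tdg, the glycosylase that removes oxidised methylcytosine, was at 0.673 ± 0.0513 FPKM in treated and 1.25 ± 0.108 in control cells (−0.92 ± 0.17, edgeR adjusted p = 0.00129). Smug1, another glycosylase, was at 4.35 ± 0.0401 FPKM in treated and 3.95 ± 0.0706 in control cells and passed in 2 of 20 alternatives, the GC correction and upper-quartile scaling. Of 14 genes for enzymes that make or use 2-oxoglutarate, succinate or related acids, 4 fell. Ogdh, which consumes 2-oxoglutarate, was at 14.9 ± 0.893 FPKM in treated and 35.5 ± 2.04 in control cells (−1.29 ± 0.09, edgeR adjusted p = 4.5e-06). Sdha, a subunit of succinate dehydrogenase, fell by 0.30 ± 0.08, a call lost with upper-quartile scaling (−0.18, adjusted p = 0.0728), and Sdhd was at 103.5 ± 5.79 FPKM in treated and 101.6 ± 4.83 in control cells without passing.

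Of 6 tested epithelial genes 3 rose and 1 fell: Krt18 rose by 1.28 ± 0.10 and Krt19 by 2.29 ± 0.33, and Krt20 fell by 0.69 ± 0.08, while Cdx2 did not pass. Of 7 mesenchymal genes 2 rose and 4 fell: Fn1 rose by 0.96 ± 0.09, Col1a1 fell by 1.08 ± 0.08 and Acta2 by 2.58 ± 0.31, while Cdh2 did not pass. Cd68 rose by 1.10 ± 0.09, and neither Lyz2 nor the endothelial gene Tie1 passed.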
